A study of Mus musculus with 6 samples.

Results

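The LIN28, HMGA, IGF2BP, SOXC and MYCN genes known as oncofetal regulators were followed across development in the choroid plexus (ChP), the epithelial tissue in the brain ventricles that secretes cerebrospinal fluid. They were taken by name, but with earlier results of these data known. The list was Lin28a, Lin28b, Hmga1, Hmga2, Igf2bp1, Igf2bp2, Igf2bp3, Sox4, Sox11 and Mycn. All 10 were found among the 24354 gene names of the deposited table. ChP of mice with the genotype FoxJ1:cre x bacTRAP (EGFP:L10a) was compared between adults at P60 and embryos at E16.5, with 3 samples of each age. Both ages carried the same alleles, so that a tagged ribosomal protein, EGFP:L10a, was made wherever Foxj1-driven Cre had acted. The mRNA on the tagged ribosomes was purified by Translating Ribosome Affinity Purification (TRAP) and sequenced. The study's methods describe pools of lateral ventricle ChP (from 3 adults, or from 3 litters of embryos, a sample). The series text speaks of 3 mice at each age, and how many animals a replicate holds is thus not settled.

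LIN28A and LIN28B bind the precursors of the let-7 microRNAs and block their maturation, while mature let-7 in turn represses the LIN28 mRNAs and several other fetal transcripts. HMGA1 and HMGA2 are architectural chromatin proteins that bend AT-rich DNA, the 3 IGF2BP proteins bind, carry and protect mRNAs such as that of Igf2, and SOX4 and SOX11 are SOXC transcription factors of progenitors and immature neurons. MYCN is the MYC family factor of embryonic tissues. Oncofetal genes are typically active in the embryo, quiet in most adult organs and switched on again in tumours.

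The let-7 family is shown first because it links 7 of the 10 genes by sequence. In the RefSeq table for GRCm38.p6, 9 distinct mature 5p sequences from 12 hairpins share the seed GAGGUAG (bases 2 to 8), shown here in capitals in let-7a, in let-7d with another first base, and in miR-98, which carries a name of its own.
let-7a-5p: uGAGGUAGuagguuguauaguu
let-7d-5p: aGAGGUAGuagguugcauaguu
miR-98-5p: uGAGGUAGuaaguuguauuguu

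LIN28 recognises GGAG in the terminal loop, and these 4 letters follow the 5p arm in 9 of the 12 hairpins. The let-7 loci themselves cannot be read from this table. Of the 12 rows of let-7 hairpin genes, 11 were listed at 0 in all 6 samples, and Mirlet7f-1 had 60.2 FPKM in E16.5 replicate 3 and 0 elsewhere. The table lists genes from a library of longer RNAs, so these rows do not measure mature microRNA.

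The letters CTACCTC, which pair with the seed, were searched on the sense strand of the annotated 3′ UTRs (GENCODE for mm10, 1 transcript a gene). Of 20980 genes with a 3′ UTR, 8.96% held at least 1 match and 0.0572% held at least 4. Lin28b, Hmga2 and Igf2bp1 each held 4, Lin28a held 2, and Hmga1, Igf2bp2 and Igf2bp3 held 1 each. Sox4, Sox11 and Mycn held none. The long 3′ UTR of Igf2bp1 (6337 bases) held its matches up to 5353 bases after the stop codon, and among genes with a 3′ UTR of like length 34.4% had a match and 0.332% had as many. For Hmga2, with 3014 bases, 16.1% of genes of like length had a match and 0.124% had as many. Sox11 had no match in 6957 bases, a length class in which 38.1% of genes had one. Printed here are 5 matches, 1 for each of the 3 Igf2bp genes and the first after the stop codon in Hmga2 and in Lin28b. Capitals mark the 7 letters and a following A where there is one, and all are on the minus strand of mm10.
Igf2bp1, chr11:95961771-95961797: gtgcgaagtaaaCTACCTCAaggtgtg
Igf2bp2, chr16:22059466-22059492: cacaaataaaagCTACCTCAggtgttt
Igf2bp3, chr6:49086780-49086806: atttttactcaaCTACCTCAggtattc
Hmga2, chr10:120364217-120364243: gacattcaatttCTACCTCAgcatcag
Lin28b, chr10:45381015-45381041: cgggcgggaagtCTACCTCAtgcaagc

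A match is a description of letters and not of a working site. All 5 are followed by A, the form in which repression is usually strongest, as are 9 of the 17 matches in the members. In Hmga2 and in Lin28b the printed match is the only 1 of 4 with this A, and the match of Hmga1 lacks it. The median log2 change, adult minus E16.5, was -0.85 in the 9622 tested genes without a match, -0.66 in the 1019 with 1 and -0.62 in the 120 with 2, and of these groups 8.85%, 7.56% and 9.17% were called lower in adult ChP by the test described next. The classes with more matches were small. The 13 genes with 3 matches had a median of -1.33 with none called in either direction. The 5 with 4 or more had -0.64, with 1 called lower in adult ChP. The members, Igf2bp1 among them, were left out of all these classes.

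FPKM counts fragments scaled to the transcript's length and to the depth of the library. It is a level per length, so it can be set side by side between genes. Ages were compared with limma on log2(FPKM + 1) over the 11601 genes with a mean FPKM above 1 in the 6 samples, and a change was called at a Benjamini-Hochberg adjusted p below 0.05. In that comparison 10.9% of the genes tested were called, 8.83% lower and 2.12% higher in adult ChP. Of the 10 members, 6 passed the filter, while 4 did not (Lin28a, Lin28b, Hmga1 and Hmga2). Igf2bp1 and Igf2bp2 were called, both lower in adult ChP. The mean log2(FPKM + 1) of all 10 members was lower in adult ChP, though the change of Lin28a and of Hmga1 was only -0.01. Most genes tested were lower too, with lower and upper quartiles of -1.79 and 0.10. The median change of the 10 members was -1.67, against -0.60 over the 14894 genes read with no filter on low values. For the 6 members tested it was -3.01, against -0.86 over all genes tested. Igf2bp1, Igf2bp2, Sox11 and Mycn had adult means of 0, 0.518, 0.0103 and 0 FPKM and passed the filter only through E16.5. A fall was thus partly built into the tested set. The members were also chosen with earlier results of these data known, so neither median is that of a blind list. In bulk samples such as these, fewer cells of a type and less RNA per cell cannot be told apart.

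Depth and zeros bear on every adult value. The smallest FPKM values are multiples of the worth of 1 read, and their spacing gave relative depths. Adult replicate 3 was shallowest, and relative to it the depth was 1.29 and 2.87 in adult replicates 1 and 2 and 4.07 to 5.01 at E16.5. Zeros made up 22%, 10.3% and 36.4% of the tested genes in adult replicates 1, 2 and 3, against 3.68% to 4.02% at E16.5. An exact 0 can be a failed estimate as well as a missing transcript. Of 81 genes for cytosolic ribosomal proteins, which every cell uses, 45, 28 and 51 had a 0 in the adult libraries and 12 to 17 in those of E16.5. Members at 0 are therefore described as listed at 0. The tissue label was checked against 18 markers of ChP epithelium, of which all were above 0 in each adult sample and 17 in each E16.5 sample. The exception was Ttr, the transthyretin gene and best known ChP marker, listed at 0 in all 3 E16.5 samples and at 20900 to 31300 FPKM in adult ChP. Folr1, a folate receptor, was high at both ages (465 to 707 FPKM in adult ChP and 827 to 1050 at E16.5).

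**Figure D1:**
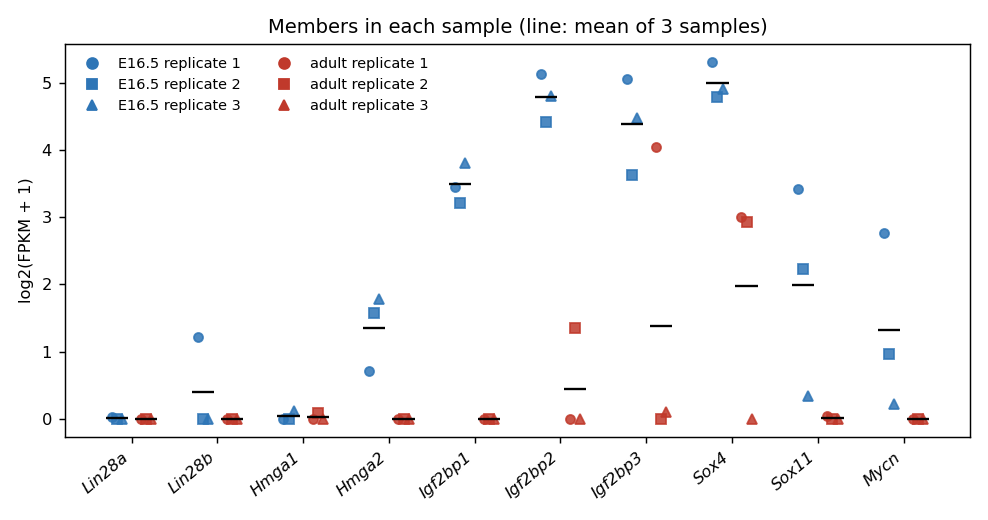
Level of each of the 10 genes in each sample, as log2(FPKM + 1), with blue for E16.5, red for adult, a marker shape per replicate and a black line at the mean of 3 samples. Sox4, Igf2bp2, Igf2bp3 and Igf2bp1 had the highest E16.5 levels, and the single adult sample of Igf2bp3 at 15.4 FPKM stands inside its E16.5 range.

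The IGF2BP family held the 2 genes called. Igf2bp1 (ENSMUSG00000013415.9, chr11:95957163-96005940, minus strand) encodes the zipcode-binding protein, first known for carrying beta-actin mRNA. Its level was 9.97, 8.22 and 13 FPKM in E16.5 replicates 1, 2 and 3 and was listed at 0 in all 3 adult samples. The groups did not overlap, and no fold is given against a group at 0. On the log2 scale the difference was -3.49 (SE 0.59, limma adjusted p = 0.0158). With the step of a single read, the E16.5 mean would have stood for about 335, 745 and 260 reads of Igf2bp1 in adult replicates 1, 2 and 3. Whether each 0 is a failed estimate was not tested.

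Igf2bp2 (ENSMUSG00000033581.17, chr16:22059009-22163299, minus strand) is the family member best known for type 2 diabetes risk and for roles in metabolism. It had 33.8, 20.3 and 26.9 FPKM at E16.5. In the adult samples it was listed at 0, 1.56 and 0 FPKM. The mean was 27.0 ± 6.77 FPKM at E16.5 and 0.518 ± 0.898 FPKM in adult ChP (SD, n = 3 each). Every adult sample lay below every E16.5 sample, and only adult replicate 2, the deepest adult library, had a value above 0. The log2 difference was -4.33 (SE 0.67, limma adjusted p = 0.0121), and 1.69% of the genes tested had a fall at least as large. For Igf2bp1 that share was 4.47%.

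Both calls were kept without any 1 adult sample and lost without any 1 E16.5 sample. Without E16.5 replicate 1, 2 or 3 the adjusted p of Igf2bp1 was 0.0646, 0.0632 and 0.0619 and that of Igf2bp2 0.0765, 0.0657 and 0.0693, at differences close to those above. Over all genes 57, 43 and 112 were called in the same fits. A pseudocount of 0.01 took Igf2bp2 to an adjusted p of 0.0722.

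Igf2bp3 (ENSMUSG00000029814.10, chr6:49085223-49214957, minus strand), the family member most often followed as a tumour marker, behaved differently from sample to sample. It had 32.1, 11.4 and 21.1 FPKM at E16.5 and 15.4, 0 and 0.0787 FPKM in the 3 adult samples, in order of replicate. Adult replicate 1 exceeded E16.5 replicate 2, so the groups overlapped. The log2 difference of -3.0 (SE 1.14) was not called (limma adjusted p = 0.125). Without adult replicate 1 the difference was -4.33 and the adjusted p 0.0272. Igf2bp3 was also called with all 6 samples scaled to the same sum of FPKM (-3.62, adjusted p = 0.0348). The value of 15.4 FPKM stood for about 251 reads, and that of adult replicate 3 for about 1.

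The 3′ part of Igf2bp3 overlaps Malsu1, a gene for a mitochondrial ribosome assembly factor on the opposite strand, with which it shares 34.5% of its 50-base stretches. The strand setting of the quantification is not given in the sources used here, so reads of these genes cannot be told apart in the overlap. In the same order of adult samples Malsu1 had 13.6, 20.5 and 0 FPKM, and it had 56.7, 11.7 and 13.4 FPKM at E16.5. It was thus as high in adult replicate 2, where Igf2bp3 was listed at 0, as in adult replicate 1.

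**Figure D2:**
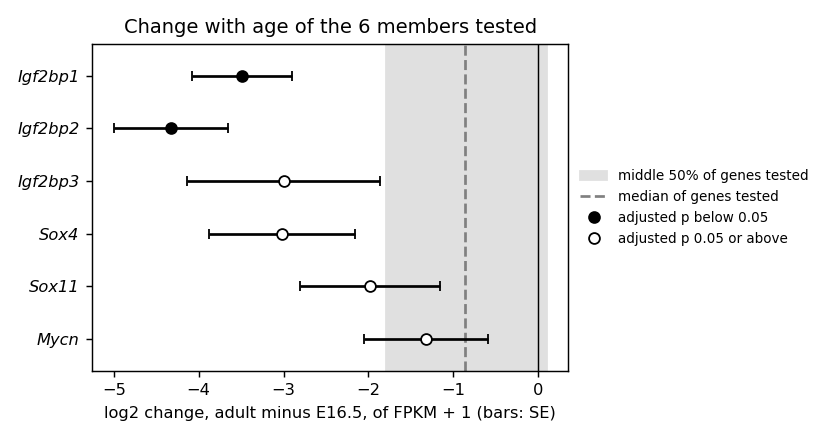
Change with age of the 6 members tested, as the log2 difference of FPKM + 1, adult minus E16.5, with bars of 1 SE, filled points for an adjusted p below 0.05, a grey band for the middle 50% of the genes tested and a dashed line at their median of -0.86. Igf2bp2 at -4.33 and Igf2bp1 at -3.49 are filled, and Mycn at -1.32 lies inside the grey band.

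Sox4 (ENSMUSG00000076431.4, chr13:28948919-28953713, minus strand, a single exon) was the most abundant member at E16.5. SOX4 acts in progenitors and in epithelia as well as in young neurons. It had 38.6, 26.5 and 28.9 FPKM at E16.5 against 7.05, 6.60 and 0 FPKM in the adult samples. The means were 31.3 ± 6.4 and 4.55 ± 3.95 FPKM (SD, n = 3 each), 6.88-fold higher at E16.5. The groups did not overlap, but the log2 difference of -3.02 (SE 0.86) was not called (limma adjusted p = 0.0635). Without adult replicate 3, listed at 0 and the shallowest library, the difference was -2.03 and the adjusted p 0.0190. Sox4 was also called when samples were scaled to the same sum of FPKM (adjusted p = 0.0168), or to that sum without Mir6236 (adjusted p = 0.0456). Mir6236 is a microRNA gene row that held 32.7% to 51.7% of the summed FPKM in adult samples. The non-coding gene Gm26735 lies opposite to Sox4 and shares 54.1% of its 50-base stretches, so its reads could be counted here.

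Sox11 (ENSMUSG00000063632.6, chr12:27334264-27342574, minus strand) is the SOXC gene most tied to newborn neurons. Its E16.5 samples differed from each other more than those of any IGF2BP gene, with 9.67, 3.70 and 0.271 FPKM in replicates 1, 2 and 3, a 35.6-fold range. Adult samples had 0.0309, 0 and 0 FPKM, of which the first stood for about 1 read. No adult sample reached the lowest E16.5 sample. The log2 difference was -1.98 (SE 0.83) and was not called (limma adjusted p = 0.152).

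Mycn (ENSMUSG00000037169.15, chr12:12936093-12941914, minus strand) showed the same order of E16.5 samples, with 5.83, 0.950 and 0.170 FPKM, a 34.3-fold range. It was listed at 0 in all 3 adult samples. The groups did not overlap, yet the log2 difference of -1.32 (SE 0.73) was not called (limma adjusted p = 0.252), and 36.5% of the genes tested had a fall at least as large. At its E16.5 mean about 23, 50 and 17 reads would have been seen in the adult libraries, while the lowest E16.5 sample rested on about 6.

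The high value of Sox11 and Mycn in E16.5 replicate 1 was shared by neuronal genes. Replicate 1 was also the highest E16.5 sample of Sox4, Igf2bp2 and Igf2bp3, over smaller ranges. The 17 neuron markers summed to 194, 58.2 and 65.6 FPKM in E16.5 replicates 1, 2 and 3 and to 2.36, 9.93 and 24.5 FPKM in the adult replicates, with 15, 11 and 9 of them above 0 at E16.5 and 2, 4 and 4 in adult ChP. The defining marker Rbfox3 had 2.47 FPKM in E16.5 replicate 1 and was at 0 in the other 5 samples. Dcx, which binds microtubules in migrating neurons, had 8.32, 0.598 and 0.00772 FPKM at E16.5, and Stmn2, a neuronal tubulin-binding protein, had 25.3, 0 and 0. Tubb3, a tubulin of neurons, had 36.2, 0.623 and 0.134 FPKM, and Gap43, of growing axons, had 17.3, 1.96 and 1.11 (these 2 genes were chosen after their values were seen). The 2 most abundant neuron markers were less steep. Nefm had 54.2, 32.8 and 38.2 FPKM and Map2 had 39.0, 14.9 and 18.7 FPKM in E16.5 replicates 1, 2 and 3. Both were highest in replicate 1 but had replicate 3 above replicate 2, unlike Sox11 and Mycn. Dcx, Stmn2 and Gap43 were at 0 in every adult sample. Markers of red blood cells were also highest in E16.5 replicate 1, at a sum of 388 FPKM against 56.7 and 122 in the others. The part of these cells in the levels of Sox11 and Mycn was not tested. Without E16.5 replicate 1, neither Sox11 nor Mycn passed the filter on mean FPKM, so that no test is given.

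**Figure D3:**
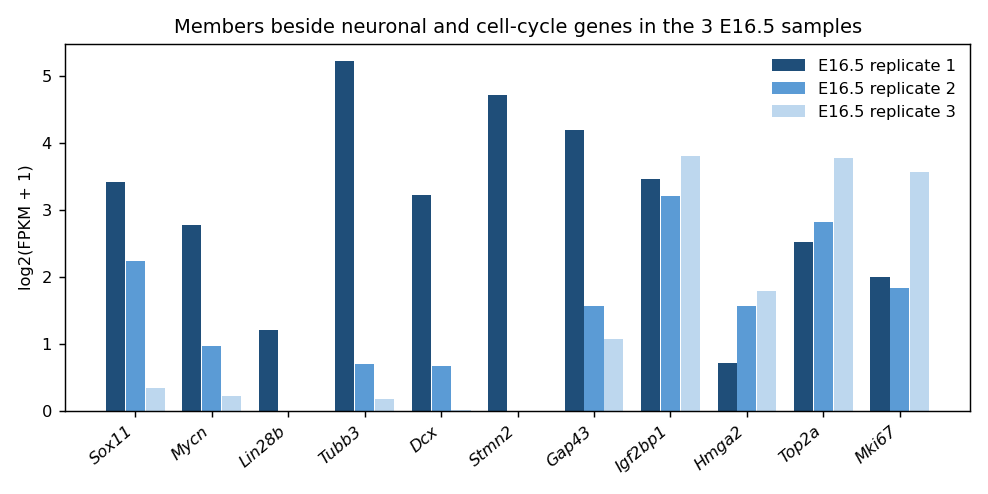
Levels in the 3 E16.5 samples as log2(FPKM + 1), with a bar per replicate, of 5 members beside the neuronal genes Tubb3, Dcx, Stmn2 and Gap43 and the cell cycle genes Top2a and Mki67. Sox11, Mycn and Lin28b are highest in replicate 1, as are the neuronal genes, while Hmga2, Igf2bp1, Top2a and Mki67 are highest in replicate 3. Not drawn are Sox4, Igf2bp2 and Igf2bp3, also highest in replicate 1. Their highest E16.5 sample was 1.46, 1.67 and 2.81 times the lowest.

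Hmga2 (ENSMUSG00000056758.14, chr10:120361275-120476469, minus strand), the fetal HMGA gene of stem cells, had another order of samples. It had 0.642, 1.97 and 2.46 FPKM at E16.5 and was listed at 0 in all adult samples. The groups did not overlap. Its mean over the 6 samples was under the filter, and with no filter on low values the log2 difference was -1.36 with an adjusted p of 0.0652. Its E16.5 mean would have given about 24, 53 and 19 reads in the adult libraries.

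The lowest levels were those of Hmga1 and both LIN28 genes. Hmga1 (ENSMUSG00000046711.16, chr17:27556497-27563674, plus strand) stayed under 0.1 FPKM in every sample, with 0.0637 FPKM in adult replicate 2 and 0.0870 FPKM in E16.5 replicate 3 as its highest values. These low values are uncertain, because 69.1% of its 50-base stretches also occur in other transcripts, and its levels cannot be ranked by age.

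Lin28a (ENSMUSG00000050966.9, chr4:134003330-134018841, minus strand), the LIN28 gene of pluripotent cells, had 0.0243 FPKM in E16.5 replicate 1, about 1 read, and 0 in the other 5 samples. Lin28b (ENSMUSG00000063804.8, chr10:45376620-45486395, minus strand) had 1.32 FPKM in E16.5 replicate 1, about 85 reads, and 0 in the other 5 samples, including the other two of its age. With no filter on low values the adjusted p was 0.915 for Lin28a and 0.477 for Lin28b. Lin28b was thus seen in 1 library alone, the one with the highest neuron marker sum.

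Ordered by mean E16.5 FPKM, the members ran from Sox4 through Igf2bp2, Igf2bp3, Igf2bp1, Sox11, Mycn, Hmga2, Lin28b and Hmga1 to Lin28a. The ranges over 3 samples overlapped for each pair of neighbours in this order. Sox4 stood above 89.2% of the rows of the table, Igf2bp1 above 74.0% and Hmga2 above 54.9%. Every adult sample lay below every E16.5 sample in 6 of the 10 members, and 5 of the 10 were listed at 0 in all adult samples. Over the 14894 genes above 0 in any sample, these shares were 26.6% and 19%. Because the members were chosen with earlier results of these data known, this is a description and not a test.

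Differences between paralogs within a sample were taken for 5 pairs and compared between ages with exact two-sided permutation tests, which cannot go below p = 0.1 with 3 samples against 3, and none passed an adjusted threshold. Hmga1 minus Hmga2 had a mean of -1.32 ± 0.52 at E16.5 and 0.03 ± 0.05 in adult ChP on the log2 scale (SD, n = 3 each, exact p = 0.1, adjusted p = 0.5 over the 5 pairs). With Hmga1 under 0.1 FPKM throughout, this repeats the values of Hmga2. Igf2bp2 exceeded Igf2bp1 in all 3 E16.5 samples, by 1.67, 1.21 and 1. In adult ChP the difference was 0, 1.35 and 0 (exact p = 0.3, adjusted p = 0.75). Igf2bp2 minus Igf2bp3 was 0.07, 0.77 and 0.34 at E16.5, and -4.03, 1.35 and -0.11 in adult replicates 1, 2 and 3 (exact p = 0.7, adjusted p = 0.875). Sox4 exceeded Sox11 in the 3 E16.5 samples by 1.89, 2.55 and 4.55, and by 2.97, 2.93 and 0 in adult ChP (exact p = 0.6, adjusted p = 0.875). Lin28b minus Lin28a was 1.18 in E16.5 replicate 1 and 0 in the other 5 samples (exact p = 1, adjusted p = 1).

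**Figure D4:**
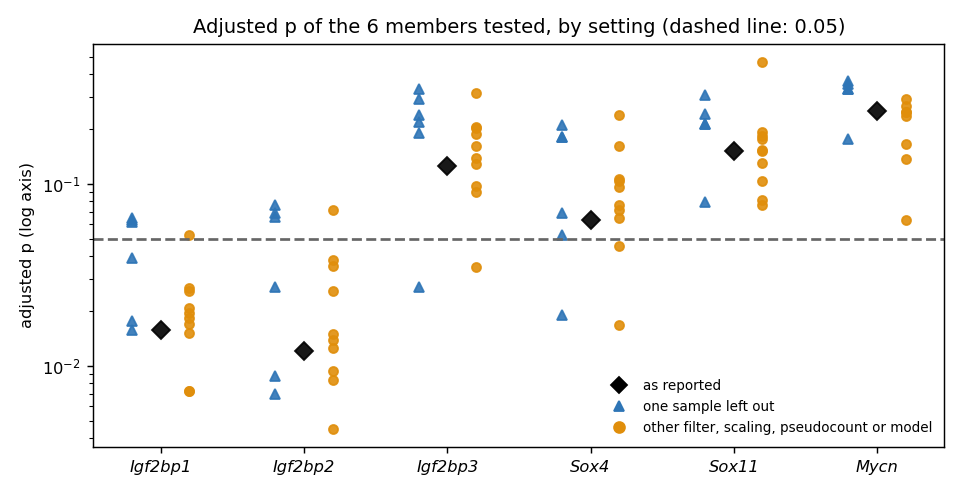
Adjusted p of the 6 members tested, on a log axis, as reported (diamonds), with 1 sample left out (triangles) and with another filter, scaling, pseudocount or model (circles). The dashed line marks 0.05, and Igf2bp1 and Igf2bp2 lie below it in 12 of 16 alternatives each, Sox4 in 3 of 16, Igf2bp3 in 2 of 16, and Sox11 and Mycn in none of theirs (15 and 13, since they did not pass the filter in the rest).

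A further 7 lists of genes that work with the members were read in the same fit, with members left out of them. Of 119 tested genes, 20 were called lower and 1 higher in adult ChP, beside 8.83% and 2.12% of all genes tested. At an unadjusted limma p under 0.05, 8 let-7 processing genes, 15 let-7 targets, 8 IGF2BP-bound mRNAs, 5 SOXC targets and 9 HMG proteins were lower in adult ChP. In the same order 1, 2, 1, 0 and 0 were higher. No share of all genes tested is given at this threshold, here or for the lists below. All genes tested had a median change of -0.86, so these counts alone do not set the lists apart. The listed genes called without E16.5 replicate 1, 2 or 3 were 0, 1 and 3.

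The list of enzymes and cofactors of let-7 processing held 4 of 20 tested genes called lower and none called higher (median change -0.95). Zcchc11, the uridylyltransferase TUT4 that LIN28A recruits to let-7 precursors, had 41.6, 42.5 and 41.3 FPKM at E16.5 and 4.49, 7.70 and 3.51 in adult ChP (log2 difference -2.83, SE 0.45, limma adjusted p = 0.0136). Dicer1, which cuts the precursors, had 31.9, 27.2 and 35.1 FPKM at E16.5 and 3.09, 6 and 6.36 in adult ChP (-2.44, SE 0.48, limma adjusted p = 0.0242). Drosha and its partner Dgcr8, which act in the nucleus, were called too, but in only 5 and 6 of 16 alternatives. Ddx5, a helicase of the same complex and the most abundant of the list, was not called (-1.21, limma adjusted p = 0.0934). Dis3l2, the nuclease that removes uridylated let-7 precursors, had 4.01, 8.78 and 17.2 FPKM in adult ChP and 16.5, 24.5 and 14.5 FPKM at E16.5 (limma adjusted p = 0.295). Trim71, another let-7 target of embryos, was listed at 0 in all 6 samples.

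Of 36 tested textbook let-7 targets, 8 were called lower and 1 higher, with a median of -1.17. E2f5, a cell cycle transcription factor, had 18.4, 38.5 and 18.3 FPKM at E16.5 and at most 0.211 FPKM in adult ChP (-4.39, SE 0.63, limma adjusted p = 0.00945). Gas7, a cytoskeletal adaptor, went the other way, from 9.79, 14.6 and 9.80 FPKM at E16.5 to 90.2, 86.8 and 92.9 in adult ChP (2.90, SE 0.34, limma adjusted p = 0.00523). Ccnd2, cyclin D2 and the most abundant gene of the list, had 102, 138 and 110 FPKM at E16.5 and 225, 200 and 233 in adult ChP, without overlap and without a call (0.91, limma adjusted p = 0.0545).

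Among mRNAs known to be bound by IGF2BP proteins, 2 of 15 tested genes were called lower and none higher (median -1.12). H19, the imprinted non-coding RNA, had 272, 41.3 and 44.7 FPKM at E16.5 and was listed at 0 in every adult sample (-6.34, SE 0.81, limma adjusted p = 0.00705). Actb, beta-actin, had 1860, 1710 and 1610 FPKM at E16.5 and 631, 1080 and 731 in adult ChP (-1.12, SE 0.26, limma adjusted p = 0.0368), called in 6 of 16 alternatives. Igf2 itself, after which the family is named, was not lower in adult ChP. It had 518, 596 and 487 FPKM at E16.5 and 794, 708 and 965 FPKM in adult ChP, without overlap (0.62, SE 0.23, limma adjusted p = 0.116).

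None of 7 tested other SOX factors was called, with 5 of 7 at an unadjusted p under 0.05 and lower in adult ChP (median -1.56). Sox9, a progenitor and ChP factor and the most abundant of them, had 128, 136 and 147 FPKM at E16.5 and 79.1, 78.0 and 64.4 in adult ChP (-0.89, limma adjusted p = 0.0641). Sox12, the remaining SOXC gene, had 16.6, 19.5 and 24.9 FPKM at E16.5 and 6.45, 0.266 and 0 in adult ChP (-3.32, limma adjusted p = 0.0509). Sox2, a stem cell factor, had 25.3 to 26.4 FPKM at E16.5 and 7.81, 9.81 and 0.145 in adult ChP (limma adjusted p = 0.105). All 3 had groups without overlap.

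SOXC targets had 4 of 11 tested genes called lower and none higher (median -2.0). Marcksl1 and Marcks, membrane-bound organisers of actin, led them. Marcksl1 had 67.3, 41.6 and 33.0 FPKM at E16.5 and 0 in every adult sample (-5.53, SE 0.59, limma adjusted p = 0.00402), and Marcks had 40.4, 25 and 22.9 FPKM against 0, 1.47 and 0 (-4.45, SE 0.66, limma adjusted p = 0.0108). Both had E16.5 replicate 1 on top, but by a smaller margin than Dcx or Stmn2 in the same list, which were not called (limma adjusted p = 0.33 and 0.411). Nrp1, a semaphorin receptor and the most abundant of the list, overlapped between ages (0.54, limma adjusted p = 0.422).

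Of 16 tested other HMG chromatin proteins, 2 were called lower and none higher (median -1.87). Hmgn3, a nucleosome-binding protein, had 187, 204 and 174 FPKM at E16.5 and 41.0, 54.9 and 18.1 in adult ChP (-2.41, SE 0.42, limma adjusted p = 0.0179), and Hmgn5 had 117, 85.7 and 129 against 46.0, 15.5 and 15.9 (-2.22, SE 0.47, limma adjusted p = 0.0308). Hmgb1, a box protein, had 3.71, 8.51 and 11.4 FPKM at E16.5 and 0, 2.84 and 0 in adult ChP (limma adjusted p = 0.0946). Of its 50-base stretches, 40.9% also occur in transcripts of other genes, on either strand. None of 14 tested genes of the MYC-MAX network was called (median -0.57, 2 at an unadjusted p under 0.05). Myc had 1.15 FPKM in E16.5 replicate 2 and 0 in the other 5 samples, while Mycl had 1.26, 3.55 and 0.788 FPKM at E16.5 and 0 in adult ChP, and neither passed the filter. Mxd4, a MAX partner that opposes MYC and the most abundant of the list, overlapped between ages (0.56, limma adjusted p = 0.41).

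**Figure D5:**
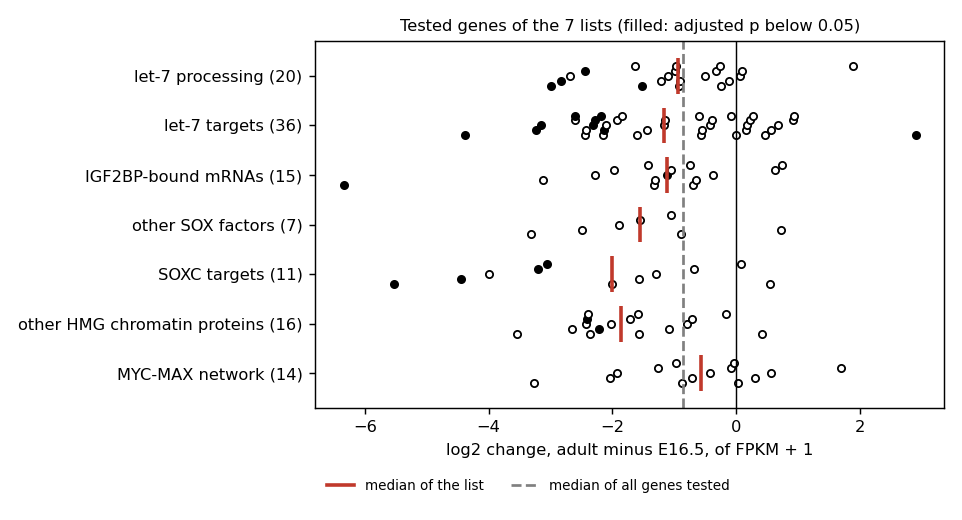
Change with age of the tested genes of 7 lists, as the log2 difference of FPKM + 1, adult minus E16.5, with a point per gene, filled for an adjusted p below 0.05, a red line at each list's median and a dashed line at the median of all genes tested. H19 at -6.34 is the farthest filled point on the left and Gas7 at 2.90 the only filled point on the right.

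Markers of other cells and of division are given beside these genes. Of 13 tested cell cycle genes, 1 was called lower (Top2a, a DNA topoisomerase of dividing cells), a share near the 8.83% of all genes tested, and the median was -1.59. Top2a had 4.72, 6.08 and 12.7 FPKM at E16.5 and 0 in adult ChP (limma adjusted p = 0.0280), and Mki67, a proliferation marker, had 3.02, 2.58 and 10.8 against 0 (limma adjusted p = 0.0557). Marker sums for mesenchyme and fibroblasts were 178 to 215 FPKM at E16.5 and 22.9 to 64.4 in adult ChP, with 10 to 12 of 14 genes above 0 at E16.5 and 3 to 9 in adult ChP. Neural progenitor markers summed to 212 to 250 FPKM at E16.5 and 81.8 to 136 in adult ChP, with Eomes at 0 in every sample, but Vim, an intermediate filament gene, made up most of the E16.5 sum. Without Vim the sums were 51.5 to 96.6 and 60.2 to 136 FPKM, and overlapped. Hopx, the next most abundant at E16.5, had 18.7, 43.0 and 17.2 FPKM at E16.5 and 45.0, 95.4 and 90.1 in adult ChP (limma adjusted p = 0.0778). Markers of motile cilia and ependyma, the cells in which Foxj1 is most active, summed to 2100 to 2410 FPKM at E16.5 and 396 to 538 in adult ChP, and Foxj1 itself had 154 to 208 against 37.9 to 62.4 FPKM (-1.93, SE 0.30, limma adjusted p = 0.0127). Their part in the lower adult levels of the members was not tested.

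For the 3 members with the highest mean FPKM, the tested genes with the nearest profile over the 6 samples were found by the root mean square difference of centred log2(FPKM + 1). Atat1 (0.11) and Dmwd (0.20) were nearest to Sox4. Nearest to Igf2bp2 were Eef1g (0.11) and C230072F16Rik (0.11), and nearest to Igf2bp3 were Pex7 (0.27) and Pfdn4 (0.34). Eef1g, a translation elongation factor that every cell uses, had 31.2, 23.4 and 30.8 FPKM at E16.5 against 0, 1.57 and 0 FPKM in the adult samples, nearly the values of Igf2bp2. Pex7, an import receptor of peroxisomes, had 13.1 FPKM in adult replicate 1 and 0.210 and 0 in the other two, the pattern of Igf2bp3.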

How the data were processed

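The authors aligned single-end reads of 50 bases to mm10 with STAR 2.4.0, per the labels, and computed the deposited FPKM per gene with Cuffquant of Cufflinks. The annotation and strand setting are not given in the sources used here. These values were taken without further scaling. Genes of mean FPKM above 1 were tested with limma 3.58.1 in R 4.3.3 (intensity trend, no covariates) on log2(FPKM + 1), adjusted by the Benjamini-Hochberg method over all 11601, and changes are adult minus E16.5. The pseudocount understates changes of low genes. The fit was tested on simulated data. The members and lists were chosen with earlier results of these data known. Of the lists, the most abundant gene and the called genes with the largest change are named, together with a few textbook genes of these pathways, such as Igf2, H19, Sox2, Sox9, Sox12 and Dicer1. Drosha, Rbfox3, Eomes, Tubb3, Gap43, and the genes Malsu1 and Gm26735 that overlap a member, were named after their values were seen. Some genes that this rule takes are not reported here.

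Depth was read from 23 to 37 low values per library, of which 62.5% to 91.3% lay within 0.1 of a whole read, by an estimator settled after these values were seen. It covers counting only, and reads carried no molecular identifiers. Coordinates and sharing of 50-base stretches came from GENCODE on mm10. Figures were drawn with matplotlib 3.10.9.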

Additional observations from a re-analysis of the deposited data

How the results depend on the processing

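The 6 tested members kept their direction in every alternative in which they passed the filter (all 16, but 15 for Sox11 and 13 for Mycn). Against 1270 genes called, 2 members and 21 listed genes in the fit as reported, scaling to the same sum of FPKM gave 3319, 4 and 55. A pseudocount of 0.01 left 1 member, and no filter, median-ratio scaling and quantile normalization left 13, 11 and 7 listed genes. Leaving out 1 sample gave 43 to 1923 genes, 0 to 3 members and 0 to 24 listed genes, with the lowest values each time an E16.5 sample was left out, and the cause was not tested. Without adult replicate 1 or 2, 687 and 1923 genes were called. Calls lower in adult ChP were 80.6% as reported, 65.3% with median-ratio scaling, 96.4% with the same sum and 49.5% with quantile normalization. The median of all genes was -0.86, -0.56, -1.46 and -0.09 in the same order. Relative to that median, Igf2bp2 stood between -3.98 and -3.36, Igf2bp1 between -3.0 and -2.47, Sox4 between -2.58 and -2.16, Igf2bp3 between -2.16 and -1.71, Sox11 between -1.25 and -0.79 and Mycn between -0.46 and -0.07, over the scalings in which each passed the filter.

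With the replicate number as a block, 564 genes, 1 member (Igf2bp2, while Igf2bp1 had an adjusted p of 0.0521) and 8 listed genes were called. Samples of the same number did not deviate together (r = 0.0009, 0.044 and 0.015), so the numbers give no pairing. The paralog difference of Igf2bp2 minus Igf2bp1 turned from -0.84 to 1.06 at a pseudocount of 0.01, that of Sox4 minus Sox11 from -1.03 to 0.25 and 1.76 at 0.1 and 0.01, and that of Igf2bp2 minus Igf2bp3 from -1.32 to 0.23 without adult replicate 1. With 1 sample left out, Lin28b minus Lin28a ran from -0.59 to 0.00, Hmga1 minus Hmga2 from 1.17 to 1.65, Igf2bp2 minus Igf2bp1 from -1.29 to -0.61, Igf2bp2 minus Igf2bp3 from -2.47 to 0.23 and Sox4 minus Sox11 from -1.59 to -0.05. At the E16.5 means, adult libraries would hold about 17 to 53 reads of Mycn and Hmga2, 7 to 20 of Lin28b and 0 of Lin28a and Hmga1.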
